A study of Mus musculus with 6 samples.

Results

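The TNF superfamily genes were described in livers of 3 Cyr61 KO and 3 Control mouse libraries measured by bulk RNA sequencing. The members were chosen by symbol: every row of the count tables named Tnfsf, Tnfrsf or Traf with a number and an optional letter, and Tnf, Lta, Ltb, Ltbr, Fas, Fasl, Cd40, Cd27 and Tnfaip3. This gave 47 members of 24411 genes: 15 ligands, 24 receptors, 7 TRAF genes and Tnfaip3. Cd40lg, Cd70, Eda and other relatives with different symbols were not members. Of the 47 members, 29 had enough counts to be tested.

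The Cyr61 KO group consisted of male mice, 24 weeks old, kept for 12 weeks on a diet that induces NASH, fatty liver disease with inflammation, with the genotype label Cyr61KO. The Control group had the same sex, age and diet and the genotype label Control. The strain of both groups was given as Cyr61fl/fl, a line with floxed Cyr61 alleles, and neither the Cre driver nor the cells in which the gene was removed were stated in the labels used here. Cyr61, the targeted gene, was at 3.77, 2.66 and 3.14 CPM (a gene's share of its library's counts, TMM-normalised) in Cyr61 KO replicates 1, 2 and 3, against 15.6, 32.4 and 27.8 CPM in Control replicates 1, 2 and 3.

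Ligands of the TNF superfamily are mostly transmembrane or shed trimers that bind receptors with cysteine-rich repeats. Some receptors, such as those of Tnfrsf1a, Fas and Tnfrsf10b, carry a death domain and can start apoptosis or necroptosis. Others recruit TRAF adaptor proteins, which lead through ubiquitin ligases and kinases to NF-kB and JNK, and Tnfaip3 (A20) is an NF-kB-induced enzyme that restrains the pathway. In liver, TNF and Fas signalling are known for hepatocyte death, TWEAK and its receptor for regeneration and the ductular reaction, and lymphotoxin beta for signals from lymphocytes to parenchymal and stromal cells.

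The libraries held 31133292 to 40377742 gene counts in Cyr61 KO livers and 21032878 to 34827903 in Control livers. Control replicate 2 stood apart: genes took up 50.9% of its reads, where the other 5 libraries had 82.8% to 87.6%, and Alb, the albumin gene of hepatocytes, was at 23800 CPM against 66200 to 90100 CPM. In the same library Malat1, a nuclear noncoding RNA, was at 3740 CPM against 56.5 to 128 CPM in the other libraries. The summed level of 8 hepatocyte markers, 1 of them called higher, was 112000 to 133000 CPM in Cyr61 KO and 41100 to 104000 CPM in Control libraries. Macrophage and monocyte markers, 5 of 11 called lower, summed to 180 to 398 CPM in Cyr61 KO and 574 to 783 CPM in Control libraries. T and NK cell markers, 1 of 9 tested called lower, summed to 4.43 to 4.69 CPM against 9.41 to 92.8 CPM, and B and plasma cell markers, 1 of 6, to 4.99 to 5.83 CPM against 13.6 to 63.2 CPM. Cholangiocyte markers, 0 of 7 called by edgeR with 5 lower at an unadjusted p below 0.05 and 3 called by DESeq2, summed to 102 to 179 CPM against 247 to 1400 CPM. Neutrophil markers, 2 of 6 called lower, summed to 2.55 to 7.23 CPM against 16.6 to 70 CPM, and Kupffer cell markers, of which edgeR called 0 of 6 and DESeq2 called 1 higher, to 190 to 547 CPM against 393 to 535 CPM. Endothelial markers, 2 of 8 called higher and 0 lower, summed to 230 to 346 CPM against 183 to 303 CPM, and stellate cell markers, 1 of 8 called lower, to 312 to 506 CPM against 443 to 686 CPM. Dendritic cell markers, 0 of 6 called by edgeR with 4 lower at an unadjusted p below 0.05 and 3 called lower by DESeq2, summed to 4.43 to 6.25 CPM against 5.69 to 30.2 CPM. DESeq2 called lower 8 of 11 macrophage and monocyte, 8 of 9 T and NK cell, and 6 of 6 neutrophil markers. It called 2 of 6 B and plasma and 2 of 8 stellate cell markers lower. Of the hepatocyte and the endothelial markers it called 2 of 8 each higher. Of all genes it called 9.8% lower and 5.86% higher, and edgeR called 2.37% lower and 1.07% higher. With edgeR, 16.1% of all tested genes were lower at an unadjusted p below 0.05. Control replicate 2 had the highest sum for macrophages, T and NK cells, B and plasma cells, neutrophils, dendritic cells, cholangiocytes and stellate cells. Of their markers 0 were at 0 in every library. In bulk tissue, fewer cells of a type and less RNA per cell cannot be told apart, and the part of these markers in the values below was not tested.

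No member passed the threshold. Genes were tested across the whole table with edgeR's quasi-likelihood test, and an adjusted p below 0.05 was called. Among all 13563 tested genes 2.37% were called lower and 1.07% higher in Cyr61 KO livers, 3.44% in either direction. Among the 29 tested members 0 were called lower and 0 higher. At an unadjusted p below 0.05, 10 members were lower and 1 was higher, where the shares of all genes were 16.1% and 11.3%. DESeq2 called 10 of the 39 members for which it gave an adjusted p lower and 0 higher, against 9.8% and 5.86% of all genes. In order of DESeq2 adjusted p, from 0.000523 to 0.0446, the 10 were Ltb, Tnfrsf12a, Traf1, Cd40, Tnfaip3, Tnfsf13b, Tnfrsf18, Tnfrsf25, Tnfrsf9 and Tnf. The limma voom fit with quality weights called 12 lower and 2 higher, against 17.8% and 15.3% of all genes.

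In 10 of the 29, every Cyr61 KO library was below every Control library, which was so in 17.9% of all tested genes. These were Tnfrsf12a, Cd40, Ltb, Traf1, Tnfrsf18, Tnfsf13b, Tnfaip3, Tnf, Traf2 and Tnfrsf1b. In 1 of the 29, Tnfrsf19, every Cyr61 KO library was above, against 17.3% of all tested genes. The median log2 fold change of Cyr61 KO over Control was -0.51 for the tested members and -0.03 for all tested genes. By role, the median was -1.93 for the 6 tested ligands of 15, -0.34 for the 15 tested receptors of 24, and -0.27 for the group of 8 formed by the TRAF genes and Tnfaip3, all tested. Control replicate 2 was the highest library in 5 of these ligands, 5 of the receptors and 4 of the 8, against 34.9% of all tested genes. At an unadjusted p below 0.05, 5 ligands, 3 receptors and 2 of the TRAF and Tnfaip3 group were lower, against 16.1% of all genes. In the other direction 1 receptor was higher, against 11.3% of all genes. These counts are a description, since a member that is high in the Control libraries alone could still pass the filter: 24 of the 29 exceeded its limit of 0.287 CPM in all 3 Cyr61 KO libraries, while Tnf, Tnfsf13b, Tnfsf14 and Traf1 did so in 1 or 2 and Tnfrsf18 in 0.

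Per length of exon, the levels of the members spanned several orders of magnitude. Ltbr, the lymphotoxin beta receptor gene, was highest, at a mean level of 55.1 ± 5.31 CPM per kb in Cyr61 KO livers and 47.6 ± 17.8 CPM per kb in Control livers (SD, n = 3 each). Tnfrsf1a, the death domain receptor for TNF, was next, at 42.8 ± 1.54 CPM per kb in Cyr61 KO and 43.7 ± 13.3 CPM per kb in Control livers. The levels of the 2 genes overlapped in Control livers, whereas in Cyr61 KO livers every library had more Ltbr than Tnfrsf1a per kb and their SDs did not meet. Receptors were thus the most abundant members, and the first 2 ranks were the same genes in both groups. In Control livers Tnfrsf12a followed at 18.2 ± 2.82, Traf4 at 16.8 ± 4.33, Fas at 14.8 ± 4.44, Tnfrsf1b at 14.0 ± 1.11 and the ligand Tnfsf12 at 12.4 ± 3.59 CPM per kb, neighbours that lay within each other's spread. The level and rank of Tnfsf12 are uncertain, since 48.3% of its exon bases are shared with another gene on the same strand. In Cyr61 KO livers Traf4 ranked 3 at 17.7 ± 0.628 CPM per kb and Tnfrsf12a ranked 7 at 5.80 ± 3.52 CPM per kb. The tested ligands other than Tnfsf12 were at 0.0691 to 1.18 CPM per kb in Cyr61 KO and 0.268 to 7.21 CPM per kb in Control livers, with Tnfsf13b the lowest in both groups.

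**Figure D1:**
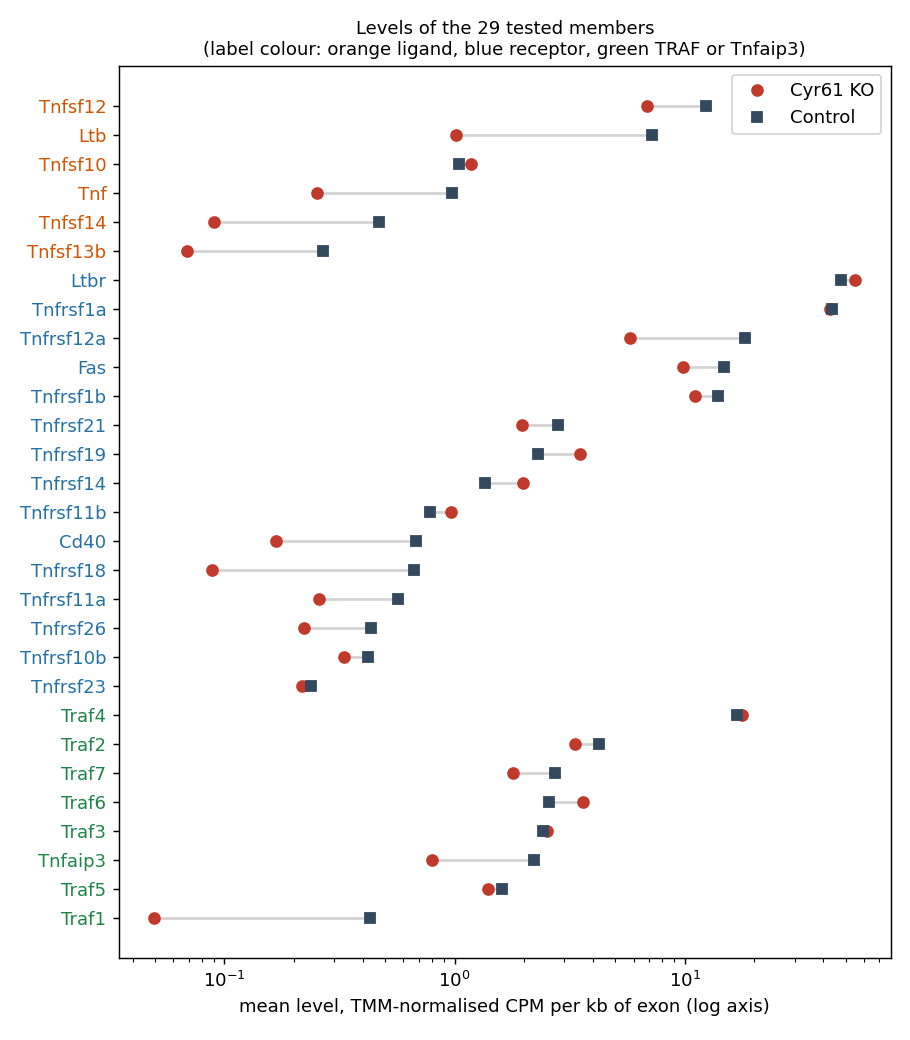
Mean level of each tested member in TMM-normalised CPM per kb of exon on a log axis, with Cyr61 KO means as red circles and Control means as dark squares, grouped by role. Ltbr and Tnfrsf1a lie furthest to the right at 42.8 to 55.1 CPM per kb, and the widest gaps between the groups are those of Traf1, Tnfrsf18 and Ltb.

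Tnfrsf12a encodes Fn14, the receptor for TWEAK, which is low in resting liver and induced by injury. Its gene lies at chr17:23675445-23677468 on the minus strand. It had the smallest p of all tested members, at 6.51, 8.12 and 19.0 CPM in Cyr61 KO replicates 1 to 3, against 36.4, 40 and 29.3 CPM in Control replicates 1 to 3. The groups did not overlap, and Cyr61 KO replicate 3 lay nearest to the Control libraries. The means were 11.2 ± 6.80 CPM in Cyr61 KO and 35.2 ± 5.43 CPM in Control livers (SD, n = 3 each), a log2 fold change (Cyr61 KO over Control) of -1.65 ± 0.39 (SE, edgeR adjusted p = 0.0532), or 31.9% of the Control level. It passed without Cyr61 KO replicate 3, at -2.26 on the log2 scale (edgeR adjusted p = 0.0083), and without Control replicate 3 (edgeR adjusted p = 0.0415). Over the 6 leave-one-out fits the adjusted p ran from 0.0083 to 0.214.

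Tnfsf12, the gene of the ligand TWEAK, was at 13.3, 8.23 and 9.62 CPM in Cyr61 KO livers, against 12.8, 19.9 and 23.5 CPM in Control livers. Cyr61 KO replicate 1 and Control replicate 1 overlapped. The log2 fold change was -0.85 ± 0.29 (edgeR adjusted p = 0.112). Exons of Tnfsf12 share 48.3% of their bases with the readthrough gene Tnfsfm13 on the same strand, so its counts are uncertain to that extent. The same holds for Tnfsf13, the APRIL gene, at 60.0% of its exon bases.

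Lymphotoxin beta, encoded by Ltb, forms heterotrimers with lymphotoxin alpha on lymphocytes and signals through the receptor of Ltbr. Ltb was at 1.28, 0.674 and 2.69 CPM in Cyr61 KO livers, against 6.01, 23.1 and 3.68 CPM in Control livers. The groups did not overlap, and Control replicate 2 was far above the other Control libraries. The log2 fold change was -2.81 ± 0.75 (edgeR adjusted p = 0.0726), and it was -1.61 without Control replicate 2 (edgeR adjusted p = 0.147). Lta had 0 counts in every Cyr61 KO library and in 2 Control libraries and 5 counts in Control replicate 2. Ltbr was at 142, 130 and 117 CPM in Cyr61 KO livers, against 122, 66.1 and 148 CPM in Control livers, so its groups overlapped at a log2 change of 0.21 ± 0.31 (edgeR adjusted p = 0.679). That value was -0.03 without Control replicate 2.

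Bases upstream of the transcription start are shown for Tnfrsf12a, Ltb and Traf1, the 3 members of smallest p that the RefSeq promoter table (GRCm38.p6) held, so that their letters can be set beside the values. Each run is 5′ to 3′ in the direction of the gene, ends where the first exon annotated in GENCODE M21 begins, and has matches to the kappaB consensus, the binding motif of NF-kB, in capitals. They lie at chr17:23677469-23677699 on the minus strand, chr17:35194257-35194438 on the plus strand and chr2:34961773-34962022 on the minus strand.
Tnfrsf12a: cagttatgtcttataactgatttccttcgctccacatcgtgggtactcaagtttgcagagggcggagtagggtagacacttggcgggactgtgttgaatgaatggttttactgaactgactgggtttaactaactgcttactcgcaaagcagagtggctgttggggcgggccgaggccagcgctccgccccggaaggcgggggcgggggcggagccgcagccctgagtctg
Ltb: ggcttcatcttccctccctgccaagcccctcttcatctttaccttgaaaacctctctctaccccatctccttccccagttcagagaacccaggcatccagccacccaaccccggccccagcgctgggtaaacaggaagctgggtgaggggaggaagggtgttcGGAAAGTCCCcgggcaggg
Traf1: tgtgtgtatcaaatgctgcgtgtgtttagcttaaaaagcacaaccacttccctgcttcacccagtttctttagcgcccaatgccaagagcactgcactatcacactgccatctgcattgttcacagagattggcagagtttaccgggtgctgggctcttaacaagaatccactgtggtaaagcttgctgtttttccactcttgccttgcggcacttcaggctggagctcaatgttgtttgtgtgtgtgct
Ltb alone of these had a kappaB match, GGAAAGTCCC, whose first base lay 87 bases before the RefSeq start. The motif was searched on both strands in the 250 bases before each start. It was found in 5 of the 39 members in the table, or 12.8%, against 4.46% of all 27025 genes with a promoter there and 5.50% of the genes tested here. The other matches lay in Tnfaip3, 12 and 125 bases before a start, in Traf3 at 10 bases, in Tnfrsf9 at 42 and 43 bases, which overlap, and in Tnfrsf8 at 168 bases. The AP-1 motif TGANTCA, searched in the same way, was found in 7 of the 39 members, or 17.9%, against 7.82% of all genes. These were Fas, Tnfaip3, Tnfrsf8, Tnfrsf9, Tnfsf13, Tnfsf13b and Tnfsf14. A match is a description of the letters in this window and not of a bound site.

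Tnf and its receptor genes differed in the size of their estimates. Tnf, the prototype inflammatory cytokine of the family made largely by macrophages, was at 0.208, 0.284 and 0.757 CPM in Cyr61 KO livers, against 1.52, 2.51 and 0.774 CPM in Control livers. The groups were separated, by a narrow margin between Cyr61 KO replicate 3 and Control replicate 3. The log2 fold change was -1.92 ± 0.67 (edgeR adjusted p = 0.117), from 7, 8 and 27 counts in Cyr61 KO and 54, 73 and 25 counts in Control libraries. DESeq2 called Tnf lower (DESeq2 adjusted p = 0.0446). It did not without Control replicate 2 (DESeq2 adjusted p = 0.209), a setting added after the data were seen. Tnf lies at chr17:35199381-35202007 on the minus strand (GRCm38), between Ltb at chr17:35194439-35196320 and Lta at chr17:35203165-35205351. Tnfrsf1a was at 111, 107 and 115 CPM in Cyr61 KO livers, against 118, 76.4 and 145 CPM in Control livers. Its Cyr61 KO values lay within the Control range, at a log2 change of -0.03 ± 0.27 (edgeR adjusted p = 0.957). Tnfrsf1b, the TNF receptor without a death domain, was at 41.5, 40.2 and 45.5 CPM in Cyr61 KO livers, against 55.4, 48.5 and 56.2 CPM in Control livers. The groups were separated, and the difference was small, -0.33 ± 0.18 on the log2 scale (edgeR adjusted p = 0.267).

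CD40 and BAFF are signals of antigen presentation and of B cell survival. Cd40 (chr2:165055627-165072948, plus strand), the costimulatory receptor of B cells, macrophages and dendritic cells, was at 0.535, 0.390 and 0.785 CPM in Cyr61 KO livers, against 2.02, 3.41 and 1.55 CPM in Control livers. No library overlapped, at a log2 change of -2.01 ± 0.51 (edgeR adjusted p = 0.0639). Without Control replicate 3 it passed (edgeR adjusted p = 0.0486). Tnfsf13b, the BAFF gene, was at 0.446, 0.248 and 0.729 CPM in Cyr61 KO livers, against 1.83, 2.65 and 1.05 CPM in Control livers. Its groups were separated too, at -1.94 ± 0.58 on the log2 scale (edgeR adjusted p = 0.0875), and it passed in 0 of the 6 leave-one-out fits. The BAFF and APRIL receptor genes Tnfrsf13b, Tnfrsf13c and Tnfrsf17 were not tested. They had 0 to 4 counts in each Cyr61 KO library and 0 to 3 in Control replicates 1 and 3, while Control replicate 2 had 16, 26 and 1.

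**Figure D2:**
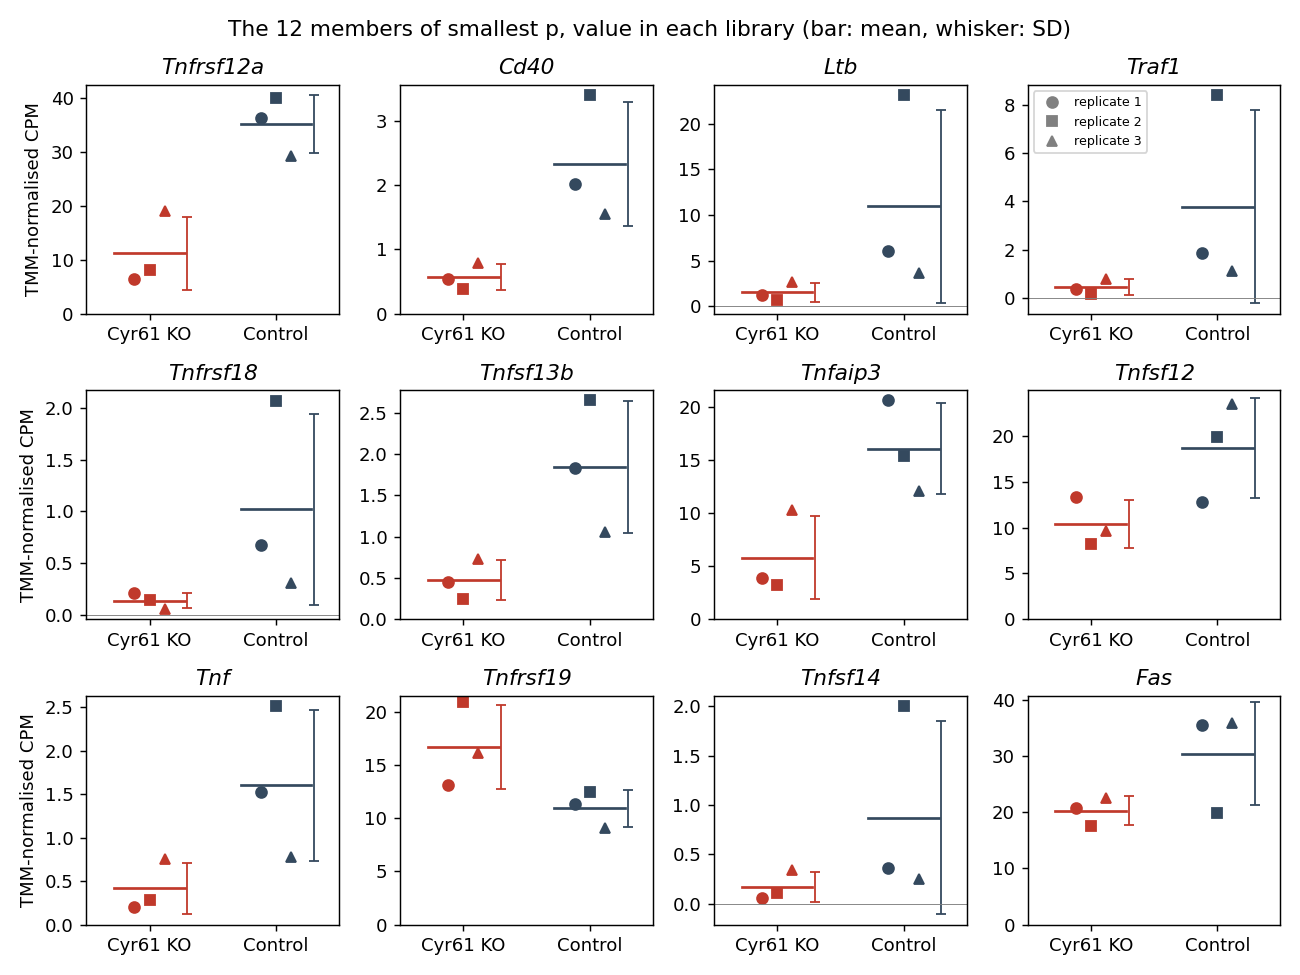
TMM-normalised CPM of the 12 members of smallest p in each library, with a horizontal bar for the mean and a whisker for the SD (n = 3 each), Cyr61 KO in red on the left and Control in dark blue on the right, and a symbol for each replicate number. In Traf1, Ltb and Tnfsf14 the high Control mean rests on replicate 2, at 8.40, 23.1 and 2.0 CPM, whereas in Tnfrsf12a all 3 Control libraries lie at 29.3 CPM or above.

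The genes of the death receptors and their ligands were measured at very different levels. Fas, the receptor through which lymphocytes kill hepatocytes, was at 20.8, 17.5 and 22.6 CPM in Cyr61 KO livers, against 35.6, 19.9 and 35.9 CPM in Control livers. Control replicate 2 lay among the Cyr61 KO libraries, and the log2 fold change was -0.59 ± 0.26 (edgeR adjusted p = 0.185). The voom fit called Fas lower, at -0.89 (voom adjusted p = 0.00293). DESeq2 called it lower without Control replicate 2 (DESeq2 adjusted p = 0.00606), a setting added after the data were seen, whereas edgeR did not (edgeR adjusted p = 0.0709). Fasl was not tested, with 6, 0 and 2 counts in Cyr61 KO libraries, against 11, 37 and 5 in Control libraries. Tnfsf10, the TRAIL gene, was at 4.66, 8.12 and 5.89 CPM in Cyr61 KO livers, against 3.96, 9.09 and 3.56 CPM in Control livers. Its groups overlapped at 0.17 ± 0.42 on the log2 scale (edgeR adjusted p = 0.810). The voom fit called it higher, at 0.84 (voom adjusted p = 0.024), and edgeR gave 0.75 without Control replicate 2 (edgeR adjusted p = 0.196). Tnfrsf10b, the mouse TRAIL receptor with a death domain and a known p53 target, was at 0.683, 0.568 and 4.15 CPM in Cyr61 KO livers, against 2.13, 2.99 and 1.76 CPM in Control livers. Cyr61 KO replicate 3 was the highest of all 6 libraries and the other 2 Cyr61 KO libraries the lowest, at -0.34 ± 0.73 (edgeR adjusted p = 0.781). Without Cyr61 KO replicate 3 the log2 fold change was -1.85 (edgeR adjusted p = 0.0813).

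RANK signalling is known from bone and lymph node formation. Tnfsf11, the RANKL gene, was not tested, with 0 counts in each Cyr61 KO library and 6, 6 and 0 in Control libraries. A count of 0 over the Cyr61 KO libraries allows a level of up to 0.0308 CPM, which is the level of 3 counts and covers counting error only. Its receptor gene Tnfrsf11a was at -1.13 ± 0.60 on the log2 scale with overlapping groups (edgeR adjusted p = 0.252). Tnfrsf11b, the gene of the decoy receptor osteoprotegerin, was at 1.28, 2.84 and 4.07 CPM in Cyr61 KO livers, against 2.11, 2.31 and 2.17 CPM in Control livers. The Cyr61 KO libraries spread on both sides of the tight Control values, at 0.31 ± 0.46 (edgeR adjusted p = 0.676).

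Receptors and ligands of T cell costimulation were near the limit of detection. Tnfrsf18, the GITR gene of regulatory and activated T cells, was at 0.208, 0.142 and 0.0561 CPM in Cyr61 KO livers, against 0.674, 2.07 and 0.309 CPM in Control livers. These were 7, 4 and 2 counts in Cyr61 KO and 24, 60 and 10 counts in Control libraries. The groups were separated, at -2.88 ± 0.86 on the log2 scale (edgeR adjusted p = 0.0872), and the value was -1.83 without Control replicate 2. Tnfsf14, the LIGHT gene, was at 0.0594, 0.106 and 0.336 CPM in Cyr61 KO livers, against 0.365, 2.0 and 0.248 CPM in Control livers. Its groups overlapped, at -2.32 ± 0.98 (edgeR adjusted p = 0.168), and the value was -0.81 without Control replicate 2. Its receptor gene Tnfrsf14 (HVEM) was at 0.54 ± 0.37 with overlapping groups (edgeR adjusted p = 0.365).

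The other genes of this kind did not reach the filter. Tnfrsf9 (4-1BB) had 3, 0 and 3 counts in Cyr61 KO and 10, 40 and 10 in Control libraries, and Tnfrsf25 (DR3) had 1, 3 and 3 against 16, 44 and 6. Both were separated between the groups, and DESeq2, which applies another filter, called both lower (DESeq2 adjusted p = 0.0292 and 0.0264). Tnfrsf4 (OX40) had 9, 0 and 3 counts in Cyr61 KO and 13, 47 and 7 in Control libraries, and Cd27 had 8, 2 and 9 against 10, 76 and 7, with overlapping groups. Of the 18 members without an edgeR test, 17 had their highest CPM in Control replicate 2. The same library was highest in 14 of the 29 tested members and in 34.9% of all tested genes. The T and NK cell markers also peaked there, at a sum of 92.8 CPM against 9.41 and 15.2 CPM in the other Control libraries, and their part in these values was not tested. Tnfsf8, the CD30 ligand gene, had 0, 2 and 2 counts in Cyr61 KO and 6, 22 and 3 in Control libraries, and Tnfsf9, the 4-1BB ligand gene, had 2, 3 and 6 against 8, 21 and 18. The remaining ones, Tnfsf4, Tnfsf13, Tnfsf15, Tnfsf18, Tnfrsf8 and Tnfrsf22, had 0 to 13 counts in each Cyr61 KO library and 0 to 18 in each Control library.

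Tnfrsf19 (TROY), a receptor that binds TRAFs, was the single tested member with every Cyr61 KO library above every Control library. It was at 13.1, 20.9 and 16.1 CPM in Cyr61 KO livers, against 11.3, 12.5 and 9.07 CPM in Control livers. The margin was narrow, between Cyr61 KO replicate 1 and Control replicate 2, at a log2 change of 0.61 ± 0.25 (edgeR adjusted p = 0.153). The voom fit called it higher (voom adjusted p = 0.00825). Tnfrsf21 (DR6), which has a death domain, was at -0.51 ± 0.35 (edgeR adjusted p = 0.359). Of the neighbouring genes on chromosome 7, Tnfrsf26 was at -0.95 ± 0.52 and Tnfrsf23, a decoy receptor for TRAIL in mice, at -0.12 ± 0.55 (edgeR adjusted p = 0.264 and 0.905). The groups of these 3 overlapped, and Tnfrsf22, Tnfrsf23 and Tnfrsf26 are close copies whose counts are uncertain.

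**Figure D3:**
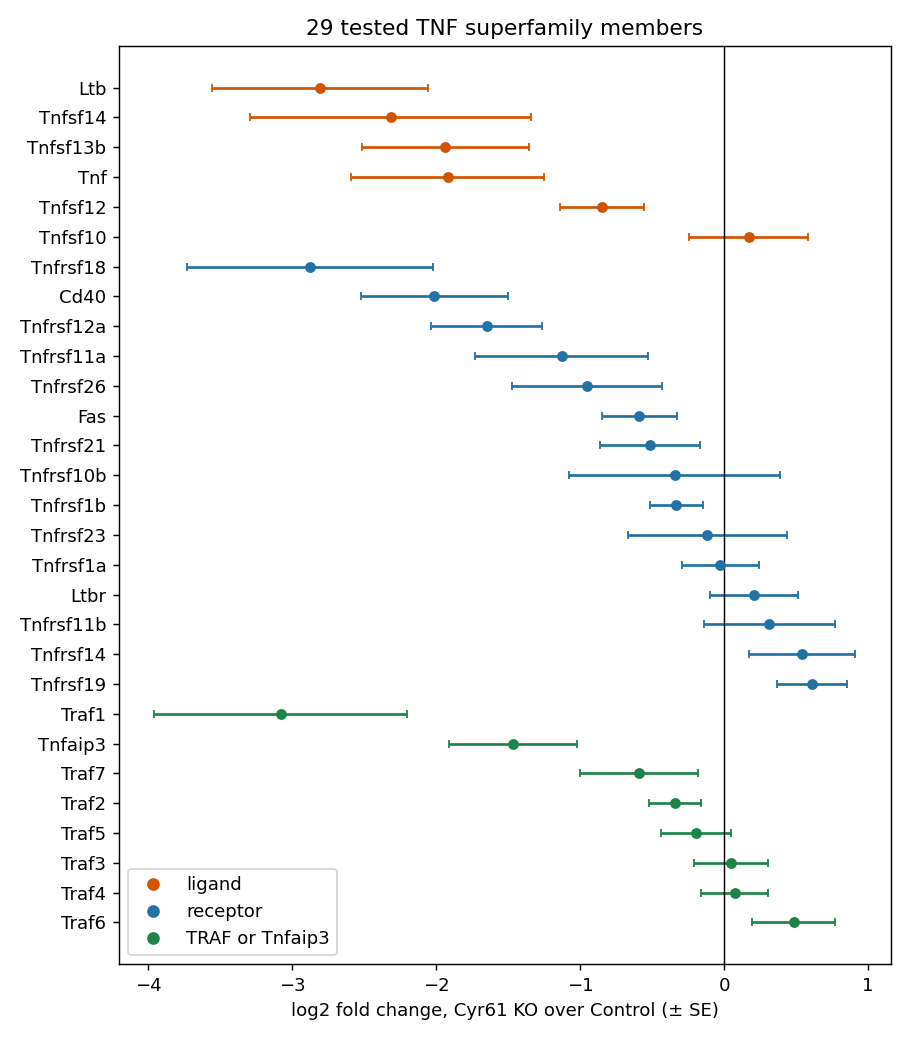
Log2 fold change of Cyr61 KO over Control for the 29 tested members, with horizontal bars of 1 standard error and colours for ligands, receptors and TRAFs with Tnfaip3. The points run from -3.08 for Traf1 to 0.61 for Tnfrsf19, with 21 members below 0 and 8 above, and 0 passed the adjusted threshold.

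The TRAF genes, which encode the adaptors beneath the receptors, mostly lay near 0. Traf1, the member of the family that is itself induced by NF-kB in lymphoid and myeloid cells, was the TRAF gene furthest from 0, at 0.386, 0.142 and 0.785 CPM in Cyr61 KO livers, against 1.85, 8.40 and 1.11 CPM in Control livers. The groups were separated, with Control replicate 2 far above the rest, at a log2 change of -3.08 ± 0.88 (edgeR adjusted p = 0.0806), or -1.71 without that library (edgeR adjusted p = 0.178). Traf2, the adaptor of both TNF receptors, was at 18.3, 17.0 and 16.0 CPM in Cyr61 KO livers, against 22.2, 22.3 and 20.7 CPM in Control livers. Its groups were separated by a small step, -0.34 ± 0.18 (edgeR adjusted p = 0.245). Traf3, an inhibitor of the alternative NF-kB pathway, was at 13.7, 17.2 and 24.6 CPM in Cyr61 KO livers, against 20.8, 16.2 and 16.6 CPM in Control livers, at 0.05 ± 0.26 (edgeR adjusted p = 0.914). Traf6, which serves CD40, RANK and Toll-like receptors, was at 22.3, 34.1 and 29.1 CPM in Cyr61 KO livers, against 23.3, 12.9 and 24.9 CPM in Control livers, at 0.48 ± 0.29 (edgeR adjusted p = 0.299). Both overlapped. Traf4, Traf5 and Traf7 were at 0.07 ± 0.23, -0.20 ± 0.24 and -0.59 ± 0.41 (edgeR adjusted p = 0.856, 0.622 and 0.366), also with overlapping groups.

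Tnfaip3 (chr10:19000910-19015657, minus strand), the feedback inhibitor A20, was at 3.83, 3.23 and 10.3 CPM in Cyr61 KO livers, against 20.6, 15.4 and 12.1 CPM in Control livers. The groups were separated, and Cyr61 KO replicate 3 lay close to the lowest Control library. The means were 5.78 ± 3.91 CPM in Cyr61 KO and 16.1 ± 4.31 CPM in Control livers (SD, n = 3 each), a log2 change of -1.47 ± 0.45 (edgeR adjusted p = 0.0895). It passed without Cyr61 KO replicate 3, at -2.17 (edgeR adjusted p = 0.0139).

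Calls among the members appeared in 2 of the 6 leave-one-out fits. Without Control replicate 3 edgeR called Cd40, Ltb, Tnfrsf12a, Tnfrsf18, Tnfrsf25 and Traf1 lower, 6 of 36 tested members or 16.7%, where 5.17% of all genes were called lower. Without Cyr61 KO replicate 3 it called Ltb, Tnfaip3 and Tnfrsf12a, 3 of 34 or 8.82%, where the share of all genes was 4.35%. Without any of the other 4 libraries it called 0, where the shares of all genes were 0.0215% without Cyr61 KO replicate 1, 0.086% without Cyr61 KO replicate 2, 0.949% without Control replicate 1 and 1.22% without Control replicate 2. Tnfrsf12a and Ltb were called when either library numbered 3 was left out.

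**Figure D4:**
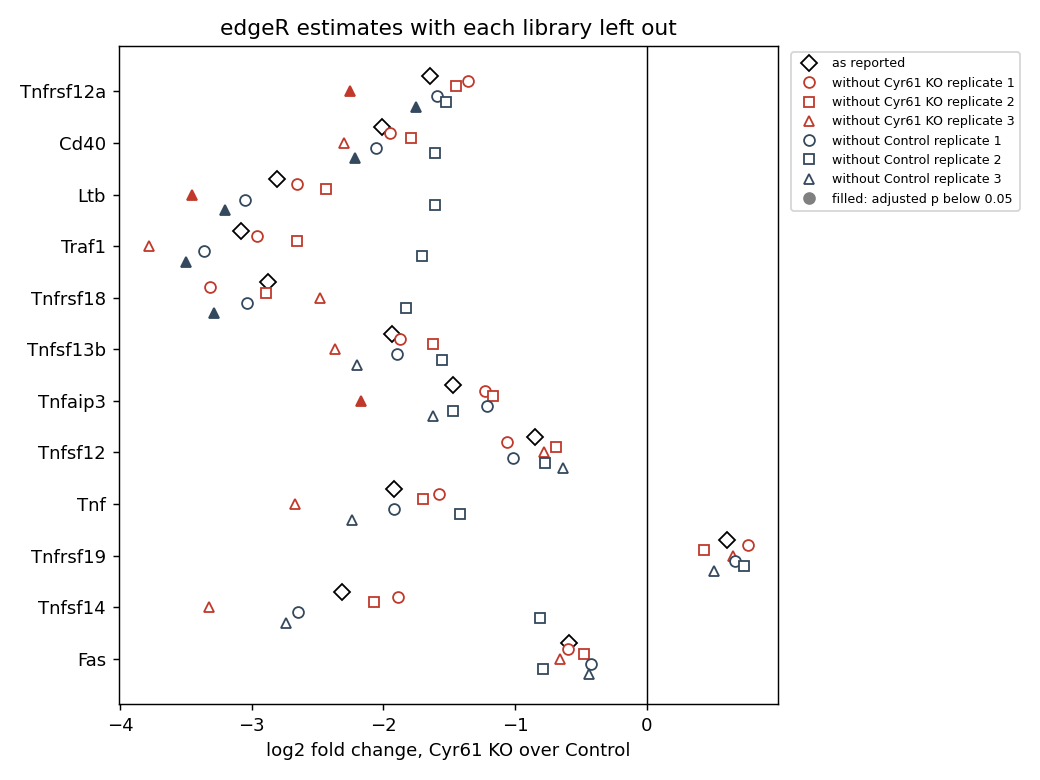
Log2 fold change of Cyr61 KO over Control for the 12 members of smallest p, from all 6 libraries (black diamonds) and with each library left out (red for a Cyr61 KO, dark blue for a Control library, the symbol giving its number), filled where the edgeR adjusted p was below 0.05. Filled symbols belong only to the fits without Cyr61 KO replicate 3 and without Control replicate 3, and the estimates of Ltb, Traf1, Tnfrsf18 and Tnfsf14 lie closest to 0 without Control replicate 2.

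Genes that act beneath the receptors were set beside the members. Of 26 adaptor and kinase genes that carry the signal, all 26 were tested, and edgeR called 0 lower and 0 higher. At an unadjusted p below 0.05, 2 were lower and 4 higher, against 16.1% and 11.3% of all tested genes. DESeq2 called 0 lower and 2 higher, against 9.8% and 5.86% of all genes. The voom fit called 2 lower and 4 higher, against 17.8% and 15.3% of all genes. The median log2 fold change was 0.14. The 3 of smallest p were Tab3, Map3k7 and Tab2, whose products form the TAK1 kinase complex, at 0.78 ± 0.25, 0.64 ± 0.22 and 0.65 ± 0.22 (edgeR adjusted p = 0.0987, 0.111 and 0.111). In all 3 every Cyr61 KO library was above every Control library. This was so in 7 of the 26, against 17.3% of all tested genes. In 1 of the 26 every Cyr61 KO library was below every Control library, against 17.9%. Mlkl and Ripk3, of the necroptosis pathway, were at -0.69 ± 0.24 and -1.56 ± 0.61 (edgeR adjusted p = 0.116 and 0.148).

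Of 25 genes known as targets of TNF and NF-kB, 24 were tested, and 3 were called lower and 0 higher, where 2.37% and 1.07% of all genes were. Vcam1, the adhesion molecule for leukocytes, fell to 17.8 ± 6.17 CPM in Cyr61 KO livers, against 57.9 ± 16.6 CPM in Control livers (SD, n = 3 each), a log2 change of -1.70 ± 0.31 (edgeR adjusted p = 0.0300). Cxcl10, a chemokine for T cells, fell to 3.71 ± 0.627 CPM, against 13.7 ± 6.62 CPM in Control livers, at -1.88 ± 0.40 (edgeR adjusted p = 0.0434). Ccl20, a chemokine for lymphocytes and dendritic cells, was called as well, with 0, 0 and 1 counts in Cyr61 KO and 13, 50 and 10 counts in Control libraries (edgeR adjusted p = 0.0428). Its level was 73.4 times higher in Control livers, with a 95% interval of 12.8 to 2940 that covers counting error only. Without Control replicate 2, which held 50 of the 73 Control counts, it was 33 times higher, with an interval of 5.36 to 1360, a setting added after the data were seen. At an unadjusted p below 0.05, 19 were lower and 0 higher, against 16.1% and 11.3% of all tested genes. DESeq2 called 15 lower, against 9.8% of all genes, and in 17 every Cyr61 KO library was below every Control library, against 17.9% of all tested genes. Relb and Nfkbie missed the threshold at -1.89 ± 0.43 and -1.51 ± 0.35 (edgeR adjusted p = 0.0503 and 0.0521), while Birc3, Tnfaip2 and Sod2 were at -0.002, 0.26 and 0.34. The count of 3 was 0 without Cyr61 KO replicate 1 or 2 or Control replicate 1 or 2. In those fits 0.0215%, 0.086%, 0.949% and 1.22% of all genes were called lower. The count was 9 and 12 without Cyr61 KO replicate 3 and Control replicate 3, against 4.35% and 5.17% of all genes. Scaling by library totals also gave 0, against 0.17% of all genes. Of the macrophage and monocyte markers 5 of 11 were called lower as well, and their part in these values was not tested. The kappaB motif was in the 250 bases before the start of 14 of the 20 target genes in the promoter table, or 70.0%, where the list was drawn up from known targets.

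**Figure D5:**
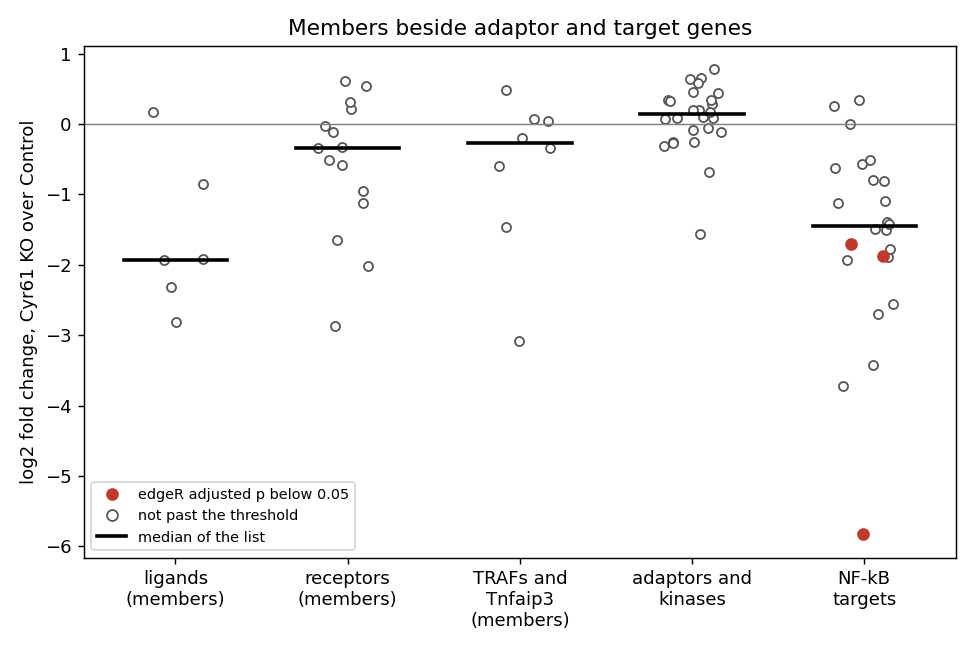
Log2 fold change of Cyr61 KO over Control for each tested ligand, receptor, TRAF with Tnfaip3, adaptor or kinase, and NF-kB target gene, with a bar at the median of each list and filled red points where the edgeR adjusted p was below 0.05. The medians are -1.93, -0.34, -0.27, 0.14 and -1.46 from left to right, the 3 filled points are NF-kB targets, and the lowest of them, Ccl20, rests on 1 count in Cyr61 KO libraries, so that its plotted value is not a measured size. Control replicate 2 was the highest library in 5 of 6, 5 of 15, 4 of 8, 4 of 26 and 21 of 24 genes of the lists in that order.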

How the data were processed

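The submitters' processing notes name STAR 2.6.1a and Trimmomatic 0.38, and list mm10 beside hg38. The annotation is not given in the sources used here. The authors deposited raw read counts per gene, 1 table per library, with unstranded and per-strand columns, and a series table that equals the unstranded counts in 100% of its rows. The reverse-strand counts were used, since the opposite strand held 0.928% to 1.35% of the stranded counts. Reads outside genes, 4.27% to 7.14% in 5 libraries and 25.7% in Control replicate 2, stayed out of library sizes.

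With R 4.3.3, edgeR 4.0.16 was run on all genes: filterByExpr (minimum count 10, minimum total 15), TMM, glmQLFit and a two-sided glmQLFTest with a group term, Benjamini-Hochberg over 13563 genes. CPM values are TMM-normalised. The SE is the absolute log2 fold change divided by the square root of F. DESeq2 1.42.0 and limma 3.58.1 were alternatives, with others listed in the closing section. The fits were tested on simulated counts. An exact permutation test of 3 against 3 cannot go below 0.1 and was not used. No label says that libraries came from separate mice, so the p-values reflect only how these libraries vary, which may be technical. The smallest chi-square per degree of freedom between 2 libraries was 57.8, far above sampling noise.

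Exon lengths and positions came from GENCODE M21 (GRCm38), promoters from RefSeq (GRCm38.p6). Values in every library are given for the 12 members of smallest p, since none was called, and for a set of main ligands, receptors and TRAFs; the other tested members have their log2 fold change. Of the further lists, called genes are named, or else the 3 of smallest p, and genes outside this rule were chosen after their values were seen. The members and lists were chosen with earlier results of these data known.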

Additional observations from a re-analysis of the deposited data

How the results depend on the processing

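The count of members called lower, 0 of 29 with edgeR, was 3 with no low-count filter, 10 with DESeq2, 12 with voom and quality weights, and 0 to 6 when 1 library was left out. Of all genes 3.72%, 9.8% and 17.8% were called lower with no filter, DESeq2 and voom. With 1 library left out the share was 0.0215% to 5.17%. With voom 2 members were called higher, against 15.3% of all genes. DESeq2 without Control replicate 2, added after the data were seen, called 5 of 34 members lower, against 5.59% of all genes. These were Cd40, Fas, Ltb, Tnfaip3 and Tnfrsf12a. Traf1, Tnfsf13b, Tnfrsf18, Tnfrsf25, Tnfrsf9 and Tnf, which DESeq2 called with all libraries, were not among them. The edgeR count was also 0 with DESeq2 size factors and with library totals, against 2.34% and 0.17% of all genes. It was 0 as well with a stricter filter of at least 1 CPM in 3 libraries and with unstranded counts, against 2.46% and 2.35%.

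Over all genes the 322 called lower became 23 with library totals, 666 with no filter, 1415 with DESeq2, 2409 with voom, 780 with DESeq2 without Control replicate 2, and 3 to 720 with 1 library left out. The 145 called higher became 27, 278, 846, 2074, 721, and 4 to 169 under the same settings in that order. Of the 26 adaptor and kinase genes, voom called 2 lower and 4 higher, against 17.8% and 15.3% of all genes. The 3 NF-kB targets called lower became 0, 10, 15, 18, 9, and 0 to 12. The median log2 fold change of the members, -0.51, was -0.79 with library totals, where the median of all genes was -0.30, and -0.67 to -0.32 with 1 library left out.

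Replicate numbers are shared between the groups, but samples of the same number did not deviate together (correlations -0.062, -0.239 and -0.452), and the main fit used no pairing. With 3 libraries per group, these correlations cannot exclude that the numbers pair them. With the replicate block, 2 members (Tnfaip3 and Tnfrsf12a) and 8 NF-kB targets were called lower, and 471 of all genes, or 3.47%.

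Of single members, 9 changed sign in some setting, and 0 of the 9 were called by edgeR. Ltbr was -0.041 by DESeq2 without Control replicate 2 and ran from -0.034 to 0.47 with 1 library left out. Tnfrsf1a was 0.002 with no filter, 0.009 by DESeq2 and 0.021 with the replicate block, and ran from -0.22 to 0.21. Tnfsf10 was -0.21 with library totals and ran from -0.049 to 0.75. Traf3 was -0.19 with library totals, -0.086 by voom and -0.012 by DESeq2 without Control replicate 2, and ran from -0.20 to 0.24. Traf4 was -0.16, -0.10 and -0.10 in those 3 settings and ran from -0.094 to 0.28. Traf7 was 0.034 by voom and 0.075 by DESeq2 without Control replicate 2, and ran from -0.87 to 0.087. Tnfrsf23 was 0.067 in that last setting and ran from -0.67 to 0.13. Tnfrsf10b ran from -1.85 to 0.09 and Tnfrsf11b from -0.082 to 0.67. The cause of these changes was not tested. With 1 library left out, 1 group had 2 libraries. The 18 members without a test did not reach the filter. They had at most 76 counts in a library, and 17 of them had their highest CPM in Control replicate 2.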

Other observations

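Relatives of the family with other symbols were measured in the same libraries. Of 9 such genes 5 were tested, and edgeR called 0 lower and 0 higher, against 2.37% and 1.07% of all genes. At an unadjusted p below 0.05, 1 was lower, against 16.1% of all tested genes. DESeq2 called the same gene lower, against 9.8% of all genes. That gene was Relt, a receptor of lymphoid tissue, with 9, 2 and 13 counts in Cyr61 KO libraries, against 37, 107 and 36 in Control libraries. Its groups did not overlap, at 0.234 ± 0.150 CPM in Cyr61 KO and 1.95 ± 1.51 CPM in Control livers (SD, n = 3 each) with -3.01 ± 0.76 on the log2 scale (edgeR adjusted p = 0.0637, DESeq2 adjusted p = 0.00171). Eda, Ngfr, Eda2r and Trafd1 overlapped, at log2 fold changes of 0.11, 0.02, 0.02 and -0.13. Eda2r, the ectodysplasin A2 receptor and a known p53 target, had 43, 58 and 268 counts in Cyr61 KO libraries, against 151, 74 and 126 in Control libraries. Its highest library was Cyr61 KO replicate 3. Among the Cyr61 KO libraries, this one was highest in 20 of the 29 tested members and in 5318 of all 13563 tested genes. The activity of p53 was not tested. Cd40lg, the ligand gene of CD40, had 0, 3 and 6 counts in Cyr61 KO libraries, against 1, 9 and 5 in Control libraries, and Cd70, the ligand gene of CD27, had 0 in all 6. These genes were described after their values were seen.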
